A study of Schizosaccharomyces pombe with 9 samples.

Results

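The genes described here encode the proteins of the large subunit of the cytosolic ribosome of fission yeast, Schizosaccharomyces pombe. They were taken as every S. pombe probe set whose symbol was rpl or rpp followed by digits alone, leaving out rpl3201 and rpl3202, the genes the study deleted. This gave 72 of the 2937 S. pombe probe sets named in the probe table, and they covered 71 genes, 64 rpl and 7 rpp. Below, all S. pombe probe sets means these 2937, and a gene is called measured if it has a probe set of its own among them. The probe table gave no name for 5390 of the 10928 probe sets of the array, and these were not tested. rpl3702 had 2 probe sets, one of a type that can also bind related transcripts, and all 72 symbols matched the current annotation.

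The study hybridised RNA of 3 strains to 9 Affymetrix arrays, 3 per strain. SD1 was strain SPQ-01 without rpl32-1 (rpl3201 in the current annotation), SD2 was SPQ-01 without rpl32-2 (rpl3202), and WT was SPQ-01 itself. All were grown in YEPD, a rich medium, at 30 °C until the culture's optical density reached 5.0, and the labels call the cultures log phase biological replicates. The series concerns flocculation of cells that are not mating. How the genes were removed, any marker left in their place, the mating type and the number of clones behind each deletion strain are not given in the sources used here. The arrays of each strain were numbered 1, 2 and 3.

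Each cytosolic ribosome holds a single copy of almost every ribosomal protein, and fission yeast encodes most of them with several genes. Such paralogs carry a shared number followed by a serial number, so rpl3401 and rpl3402 both encode ribosomal protein L34. The genes are among the most strongly transcribed of a growing yeast cell. The acidic P1 and P2 proteins (rpp1 and rpp2 families), held by P0 (rpp0), form the flexible stalk that recruits translation factors, while L5 and L11 join the 5S rRNA in a particle that is built into the subunit early, and L10 (rpl1001, rpl1002) is added late.

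The targeted genes followed the labels. On the log2 scale rpl3201 read 5.04 ± 0.94 in SD1, 14.85 ± 0.32 in SD2 and 14.13 ± 0.29 in WT (SD, n = 3). rpl3202 read 14.28 ± 0.18 in SD1, 8.01 ± 0.83 in SD2 and 14.24 ± 0.14 in WT, so in SD2 its probe set stayed above the background given by the S. cerevisiae probe sets, which averaged 5.17 over the 9 arrays. P and M are the mating types of fission yeast. The M cell markers were 9 probe sets for 7 genes. Of these probe sets 8 fell in SD1 and 3 in SD2, where 23.7% and 14.3% of all S. pombe probe sets fell. The summed linear signal of the M cell markers ran over 3477 to 5466 in SD1, 4871 to 8349 in SD2 and 7417 to 12732 in WT. Of the 3 P cell markers map2 rose in both deletions, by 1.11 in SD1 and 0.96 in SD2. The other P cell markers gave no call, with map4 at -0.23 and -0.20 and map3 at -0.003 and 0.06. The summed signal of the P cell markers ran over 876 to 965, 870 to 955 and 881 to 1022 in SD1, SD2 and WT. No marker lay at or below background on all arrays of a strain, and their part in the results was not tested. In bulk RNA fewer cells of a type and less RNA per cell cannot be told apart.

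The members had high signals on every array. A signal depends on the probes as well as on the transcript, so signals are not compared between genes as amounts of RNA. Their median log2 signal per array lay between 13.63 and 13.93, the dimmest member read 11.06 to 11.43, and 50 to 62 of the 72 exceeded the 95th percentile of all S. pombe probe sets. Averaged over arrays, the median member read 13.84 ± 0.076 in SD1, 13.81 ± 0.082 in SD2 and 13.73 ± 0.12 in WT (SD, n = 3), differences about as large as the spread between replicates. The arrays numbered 1 read higher for these genes than the others, with a mean of member medians of 13.90, against 13.73 for those numbered 2 and 13.75 for those numbered 3. Arrays carry no read depth, and 3 arrays per strain limit the precision.

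In SD1 most large-subunit genes lay slightly above WT and a few moved clearly. Of the 72 probe sets 10 rose and 3 fell (limma, Benjamini-Hochberg adjusted p under 0.05 over all 2937 S. pombe probe sets), or 13.9% and 4.17% of the members. Over all S. pombe probe sets 19.5% rose and 23.7% fell. The fitted changes had a median of 0.13, against -0.03 over all S. pombe probe sets, and 69 of 72 were above 0. The 3 below 0 were the 3 that fell. Taken within the arrays of a single number, the median change was 0.09, 0.16 and 0.11.

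In SD2 the same direction of small shifts was seen, with fewer calls. Here 6 probe sets rose and 3 fell, 8.33% and 4.17% of the members, against 17.6% and 14.3% of all S. pombe probe sets. The median change was 0.10, against 0.01 over all S. pombe probe sets, and 66 of 72 were above 0. Within numbers the median was 0.07, 0.15 and 0.08. Both deletions were set against the same 3 WT arrays, so their changes share whatever is particular to those arrays.

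A fit with the replicate number as a block called far more members. It found 41 higher and 3 lower in SD1, where 26.8% and 33.0% of all S. pombe probe sets were called, and 28 higher and 3 lower in SD2, where the shares were 26.0% and 23.6%. With the block 56.9% of the members were called higher in SD1 and 38.9% in SD2. The median standard error of a member's change was 0.039 with the block and 0.090 without it. The direction against WT was positive in all 3 numbers for 65 members in SD1 and 58 in SD2, against 35.9% and 37.4% of all S. pombe probe sets, and negative in all 3 for 3 and 4, against 42.8% and 35.2%. All 3 SD1 arrays lay above all 3 WT arrays for 16 members and below them for 3, against 23.3% and 28.6% of all S. pombe probe sets. For SD2 these counts were 13 and 3, against 23.1% and 20.2%. These counts stand beside the unblocked ones because same-numbered arrays of different strains held many exactly equal values.

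**Figure D1:**
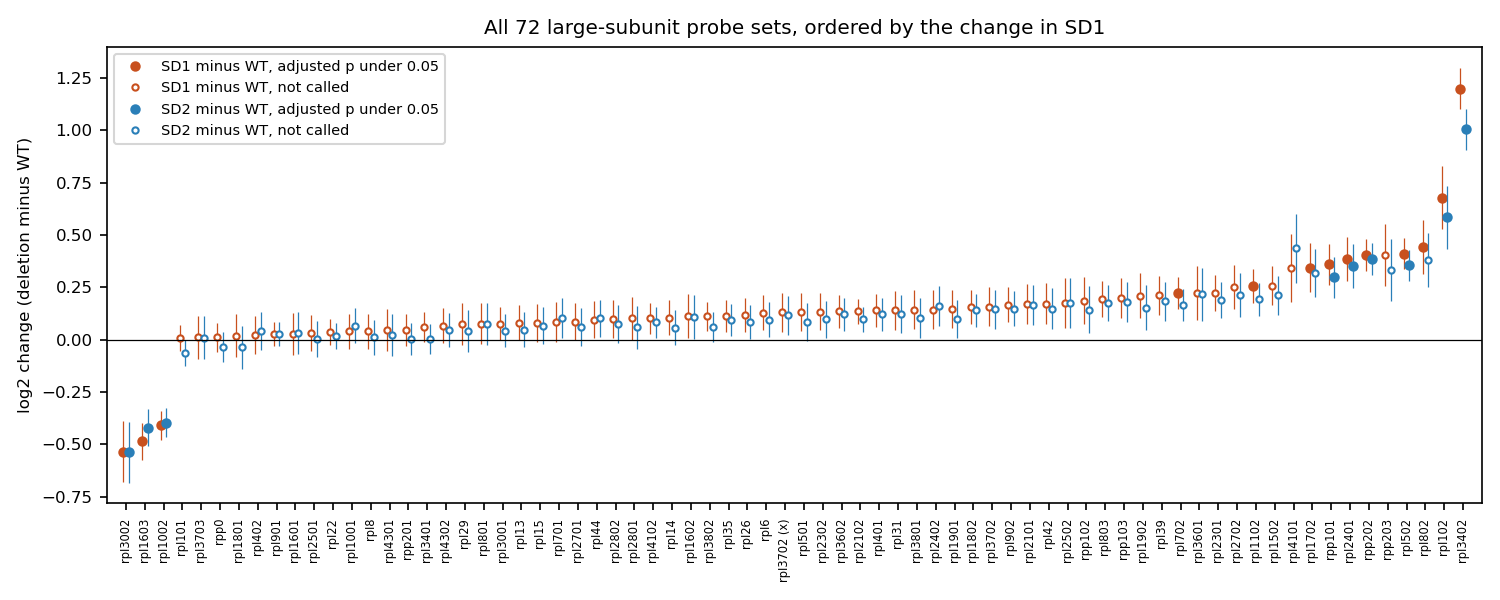
Log2 change of each of the 72 large-subunit probe sets against WT (vertical axis), with its standard error from the limma fit, ordered from left to right by the change in SD1. Red-brown points are SD1 and blue points SD2, filled where the adjusted p was under 0.05. Most points lie between 0 and 0.25, with rpl3402 and rpl102 far above and rpl1002, rpl1603 and rpl3002 below.

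The largest rise belonged to rpl3402, which encodes L34. It read 12.89, 12.80 and 13.02 on the 3 SD1 arrays, 12.62, 12.77 and 12.74 on the SD2 arrays, and 11.66, 11.57 and 11.88 on the WT arrays. All 6 deletion arrays lay above all WT arrays. The change was 1.20 ± 0.10 (log2 ± SE) in SD1, a 2.30-fold rise with an adjusted p of 0.000103, and 1.00 ± 0.10 in SD2, a 2.01-fold rise with an adjusted p of 0.000477 (limma). Within numbers it was 1.23, 1.23 and 1.14 in SD1 and 0.96, 1.19 and 0.86 in SD2. It kept its call under every alternative tried, with adjusted p-values no higher than 0.019. Its paralog rpl3401 read 13.89, 13.80 and 13.80 in SD1, 13.86, 13.75 and 13.72 in SD2, and 13.85, 13.71 and 13.75 in WT. Those groups overlapped, and the changes were 0.06 ± 0.073 in SD1 and 0.00 ± 0.073 in SD2.

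Next came rpl102, a gene for the protein of the mobile L1 stalk beside the exit site for tRNA. It read 12.69, 12.67 and 12.57 in SD1, 12.55, 12.66 and 12.44 in SD2, and 12.21, 11.58 and 12.10 in WT. The groups did not overlap, but 1 WT array stood well below the other two. The change was 0.68 ± 0.15 in SD1 with an adjusted p of 0.00707, and 0.58 ± 0.15 in SD2 with an adjusted p of 0.0192 (limma). Within number 2 it was 1.09 in SD1 and 1.07 in SD2, while within numbers 1 and 3 it was 0.48 and 0.47 in SD1 and 0.34 in both for SD2. The call in SD2 was lost without SD2 array 2. The paralog rpl101, bright and flat, changed by 0.01 ± 0.062 in SD1 and -0.07 ± 0.062 in SD2.

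For the 5S particle, rpl502 rose in both deletions. It read 13.49, 13.38 and 13.41 in SD1, 13.43, 13.33 and 13.35 in SD2, and 13.10, 12.91 and 13.04 in WT, with no overlap. The change was 0.41 ± 0.074 in SD1 (limma, adjusted p = 0.00238) and 0.36 ± 0.074 in SD2 (adjusted p = 0.00719). The other gene for L5, rpl501, changed by 0.13 ± 0.092 and 0.08 ± 0.092. rpl1102, the measured gene for L11, rose by 0.26 ± 0.080 in SD1 (adjusted p = 0.0316), and had a change of 0.19 ± 0.080 in SD2 (adjusted p = 0.105). Its call in SD1 was lost when any 1 of 5 arrays was left out.

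The stalk proteins contributed 2 of the rises. Of the 7 rpp probe sets rpp202 and rpp101 rose in both deletions, which is 28.6% beside 19.5% of all S. pombe probe sets in SD1 and 17.6% in SD2. With the replicate block 5 were called higher in each, or 71.4%, beside 26.8% and 26.0%. rpp202, for a P2 protein, read 14.30, 14.15 and 14.19 in SD1, 14.22, 14.17 and 14.19 in SD2, and 13.89, 13.70 and 13.83 in WT. The change was 0.40 ± 0.075 in SD1 (limma, adjusted p = 0.00277) and 0.38 ± 0.075 in SD2 (adjusted p = 0.00579), with every deletion array above every WT array. Its signal was the highest among the members that rose.

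rpp101, for a P1 protein, read 13.52 to 13.66 in SD1, 13.44 to 13.61 in SD2 and 13.05 to 13.40 in WT. It rose by 0.36 ± 0.098 in SD1 (limma, adjusted p = 0.0171) and by 0.30 ± 0.098 in SD2 (adjusted p = 0.0485). The SD1 call was lost without SD1 array 1 or SD1 array 3, and the SD2 call was lost when any of 8 arrays was left out. The P2 gene rpp203 had a change of 0.40 ± 0.15 in SD1 (adjusted p = 0.0564) and 0.33 ± 0.15 in SD2 (adjusted p = 0.126), and was called in both with the block, and also without the block when WT array 1 was left out. Its WT arrays read 13.08, 12.55 and 12.83, a wide spread for this set of genes. At the other end rpp201, also a P2 gene, changed by 0.05 and 0.00 and rpp0, for the stalk base, by 0.01 and -0.04 in SD1 and SD2. rpp102 and rpp103, the remaining P1 genes, changed by 0.18 and 0.20 in SD1 and by 0.14 and 0.18 in SD2, and were called with the block but not without it.

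The other rises in SD1 were smaller. rpl802, 1 of 3 genes for a protein close to the peptidyl transferase centre, rose by 0.44 ± 0.13 (limma, adjusted p = 0.0226), and its change in SD2 was 0.38 ± 0.13 (adjusted p = 0.0529). It read 13.26 to 13.48 in SD1, 13.19 to 13.39 in SD2 and 12.64 to 13.14 in WT, so the groups did not overlap. The SD1 call was lost without SD1 array 1, SD1 array 2 or WT array 2. Its paralogs rpl801 and rpl803 changed by 0.08 and 0.19 in SD1 and by 0.07 and 0.17 in SD2. Of these, rpl803 was called higher in both deletions with the block. rpl2401, for L24, rose by 0.38 ± 0.10 in SD1 (adjusted p = 0.0169) and 0.35 ± 0.10 in SD2 (adjusted p = 0.0331). Leaving out SD1 array 1 removed the first call and leaving out any of 6 arrays removed the second. The paralog rpl2402 changed by 0.14 in SD1 and 0.16 in SD2, and was called higher in both with the block but not without it.

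rpl1702, for a protein lining the exit tunnel, rose by 0.34 ± 0.12 in SD1 (limma, adjusted p = 0.0407), and rpl702, for L7, by 0.22 ± 0.076 (adjusted p = 0.0436). In SD2 these changes were 0.32 ± 0.12 (adjusted p = 0.0683) and 0.16 ± 0.076 (adjusted p = 0.136). Both SD1 calls were fragile, since leaving out any of 7 arrays removed that of rpl1702 and any of 8 removed that of rpl702. The paralog rpl701 changed by 0.09 in SD1 and 0.10 in SD2, and was not called with or without the block. In the annotation's gene order rpl702 and rpl501 lay 3 protein-coding genes from rpl3202, one on each side, on chromosome I. No member lay within 5 genes of rpl3201.

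rpl1002, rpl1603 and rpl3002 fell in SD1 and in SD2, by 0.40 to 0.54 on the log2 scale. rpl1002, for L10, read 13.86, 13.80 and 13.81 in SD1, 13.86, 13.85 and 13.79 in SD2, and 14.13, 14.26 and 14.31 in WT. The deletion arrays lay close together and all below WT. The change was -0.41 ± 0.070 in SD1 (limma, adjusted p = 0.0018) and -0.40 ± 0.070 in SD2 (adjusted p = 0.00357), that is 1.33-fold and 1.32-fold lower. rpl1001, the other gene for L10, had the highest signal of the members in WT and changes of 0.04 ± 0.082 and 0.07 ± 0.082.

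rpl1603, 1 of 3 genes for L16, read 11.34, 11.17 and 11.06 in SD1, 11.37, 11.19 and 11.21 in SD2, and 11.69, 11.66 and 11.67 in WT. Again no deletion array reached a WT array, and the WT arrays were nearly equal. It fell by 0.49 ± 0.087 in SD1 (limma, adjusted p = 0.00231) and by 0.42 ± 0.087 in SD2 (adjusted p = 0.00706). Its paralogs rpl1601 and rpl1602 changed by 0.03 and 0.11 in SD1 and by 0.03 and 0.11 in SD2, and rpl1602 was called higher in SD1 with the block. The L16 family was the 1 family in which the blocked fit called one paralog higher and another lower in SD1, and there was none in SD2.

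rpl3002, for L30, read 11.91, 11.76 and 11.89 in SD1, 11.91, 11.74 and 11.90 in SD2, and 12.18, 12.75 and 12.24 in WT. The 6 deletion arrays were tight and below WT, but WT array 2 stood far above the other WT arrays. The change was -0.54 ± 0.15 in both deletions, with adjusted p-values of 0.0168 in SD1 and 0.0225 in SD2 (limma). Within number 2 it was -0.995 in SD1 and -1.01 in SD2, and within numbers 1 and 3 it was -0.27 and -0.35 in SD1 and -0.27 and -0.33 in SD2. The call was lost without SD1 array 2 in SD1, and without SD2 array 2 or SD2 array 3 in SD2. rpl3001 changed by 0.08 ± 0.080 and 0.04 ± 0.080. In the baker's yeast S. cerevisiae L30 is known to bind its own transcript and block its splicing.

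**Figure D2:**
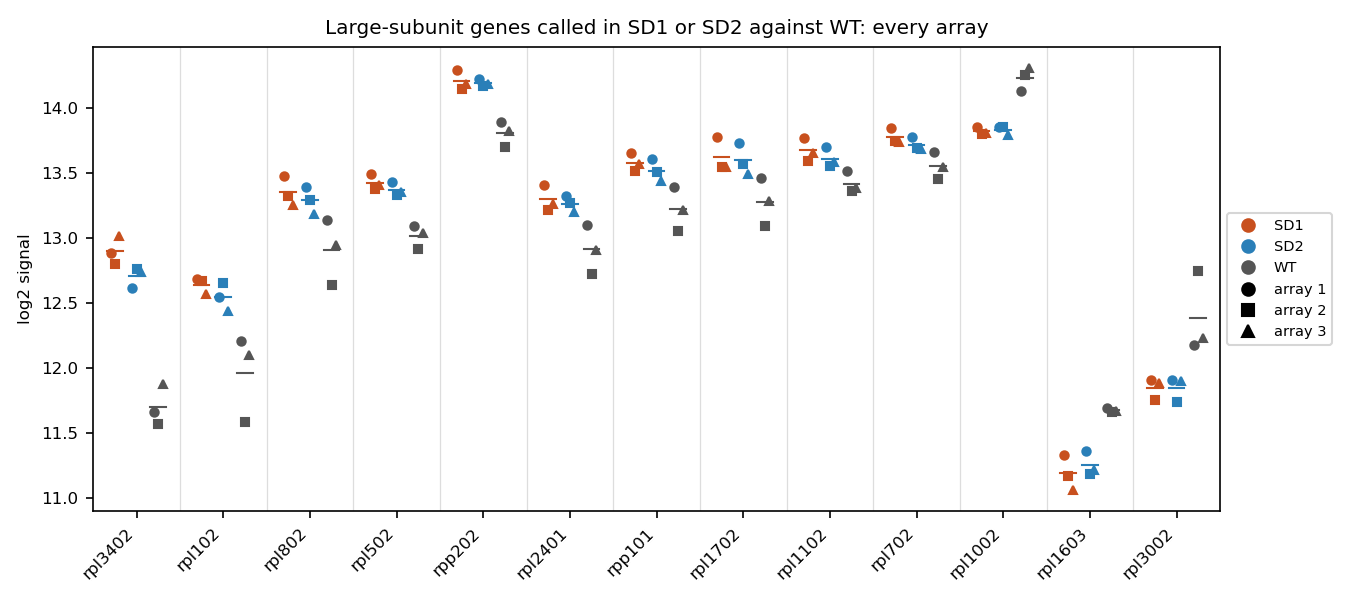
Log2 signal of each member called in SD1 or SD2 on every array (vertical axis), with SD1, SD2 and WT side by side for each gene and the marker shape giving the array number. Horizontal bars are means of 3 arrays. For rpl3402, rpl1603 and rpl1002 the deletion arrays form a tight group apart from WT, while rpl102 and rpl3002 each have 1 WT array far from the other two.

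Of the 13 calls in SD1, 6 held when any single array was left out, those of rpl3402, rpl102, rpl502, rpp202, rpl1002 and rpl1603. Of the 9 in SD2, 5 held, those of rpl3402, rpl502, rpp202, rpl1002 and rpl1603. Centring each array on its median removed the SD1 calls of rpl1102, rpl1702 and rpl702 and the SD2 calls of rpl2401 and rpp101, and fitting only the strains compared removed these and the SD2 call of rpl3002. With the arrays numbered 1 and 2 alone, a setting chosen after the data were seen, rpl3402 was the one member called in each deletion. No share over all S. pombe probe sets was taken for the calls held or lost in these settings. Every call of the unblocked fit was also made with the block, in the same direction. The block added 31 members in SD1, with changes of 0.10 to 0.40, led by rpp203, rpl4101, rpl1502, rpl2702, rpl2301 and rpl3601. It added 22 in SD2, with changes of 0.12 to 0.44, led by rpl4101, rpl802, rpp203, rpl1702, rpl3601 and rpl2702. Neither fit called 28 members in SD1 and 41 in SD2.

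rpl4101, which encodes the very small protein L41, had the lowest signal of the members in WT. It read 11.27, 11.78 and 11.70 in SD1, 11.42, 11.81 and 11.80 in SD2, and 11.12, 11.18 and 11.43 in WT. The groups overlapped, since SD1 array 1 and SD2 array 1 both lay below WT array 3. The change was 0.34 ± 0.16 in SD1 (limma, adjusted p = 0.127) and 0.44 ± 0.16 in SD2 (adjusted p = 0.0744).

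The 14 genes without a paralog number, which include rpp0 and rpl39, gave no call in either deletion. Over all S. pombe probe sets 19.5% rose and 23.7% fell in SD1, and 17.6% and 14.3% in SD2. The changes of the 14 ran from 0.01 (rpp0) to 0.21 (rpl39) in SD1 and from -0.04 (rpp0) to 0.18 (rpl39) in SD2. With the block, which called 26.8% of all S. pombe probe sets higher in SD1 and 26.0% in SD2, 7 and 3 of the 14 were called higher, among them rpl39, rpl42 and rpl31 in both. The 55 probe sets with a measured paralog gave 8 rises and 3 falls in SD1 and 6 rises and 3 falls in SD2. In SD1 the rises were 14.5% of the 55 and the falls 5.45%, against 19.5% and 23.7% of all S. pombe probe sets. In SD2 they were 10.9% and 5.45%, against 17.6% and 14.3%. The numbering sets these groups apart, and rpl15 stands among the 14 although rpl1502 was measured too. The 14 were also bright, with mean signals of 13.77 (rpl14) to 14.24 (rpl26). Of 17 other S. pombe probe sets between 13.79 and 13.96, 0 were called in SD1, and of 23 between 13.96 and 14.29, 1 was. Numbering and brightness were not separated here.

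Each change can be set against that of a paralog for the same protein. The measured genes formed 25 families with at least 2 members, and in 11 of them at least 1 paralog was called in SD1 and in 9 in SD2. In no family was every measured paralog called in either deletion. With the block every measured paralog was called in 7 families in SD1 (rpl5, rpl19, rpl21, rpl23, rpl24, rpl38 and rpp1) and in 2 in SD2 (rpl24 and rpp1). These counts depend on how many of the 55 probe sets with a measured paralog were called. Without the block 14.5% rose and 5.45% fell in SD1, and 10.9% and 5.45% in SD2. With it 56.4% and 40.0% were called higher. No share over all pairs of S. pombe probe sets was taken for the family counts. A call in one paralog and none in the other does not itself show that they differ, so the difference between paralogs was taken on each array, where a scaling of the whole array cancels.

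Over 33 such pairs, the 6 deletion arrays lay all on one side of the 3 WT arrays in 20, or 60.6%, against 43.0% of all possible pairs of S. pombe probe sets. In 26 pairs, or 78.8%, the difference had the same sign in all 3 numbers and both deletions, against 68.1% of all pairs. Its size, deletions minus WT, had a median of 0.16, exceeded 0.5 in 4 pairs and was below 0.1 in 12. A two-sided exact permutation test of 6 deletion against 3 WT arrays gave a p under 0.05 in 22 pairs, unadjusted over the 33, or 66.7%, against 52.9% of all pairs. Unequal change was thus common between any probe sets of this array, and whether the paralogs differ from other pairs was not tested. The smallest p it allows, 0.0119, was reached in 19, and no share over all pairs was taken for that. This test takes SD1 and SD2 together, as 3 against 3 arrays cannot go below 0.1.

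The L34 pair was the most unequal. The rpl3402 signal minus that of rpl3401 was higher in SD1 by 1.14 ± 0.12 and in SD2 by 1.00 ± 0.12 (log2 ± SE). Next was the L1 pair, where rpl102 gained on rpl101 by 0.67 ± 0.17 in SD1 and 0.65 ± 0.17 in SD2. rpl3001 gained on rpl3002 by 0.61 ± 0.19 and 0.58 ± 0.19, which includes a step of 1.10 within number 2 in each deletion.

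Within the L16 family rpl1602 gained 0.60 ± 0.072 and 0.53 ± 0.072 on rpl1603 in SD1 and SD2, and rpl1601 gained 0.51 ± 0.067 and 0.45 ± 0.067. These 2 pairs share rpl1603 and are not independent. For L10, rpl1001 gained on rpl1002 by 0.45 ± 0.095 in SD1 and 0.46 ± 0.095 in SD2. For each of these 6 pairs the exact permutation p over 6 and 3 arrays was 0.0119, the smallest possible. The 6 were picked from the 33 by the size of this difference on these same arrays, a choice that favours a small p. The test also leaves out the array number.

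Below these came rpp202 over rpp201 by 0.37 ± 0.030, rpp203 over rpp201 by 0.34 ± 0.094 and rpl802 over rpl801 by 0.34 ± 0.069, both deletions pooled. Each had an exact permutation p of 0.0119, with the same limits. The L41 pair, rpl4101 over rpl4102, had a difference of 0.30 ± 0.18 with an exact permutation p of 0.131, a test that leaves out the array number. Within numbers it was 0.14, 0.39 and 0.19 in SD1 and 0.29, 0.45 and 0.32 in SD2, above 0 in each.

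**Figure D3:**
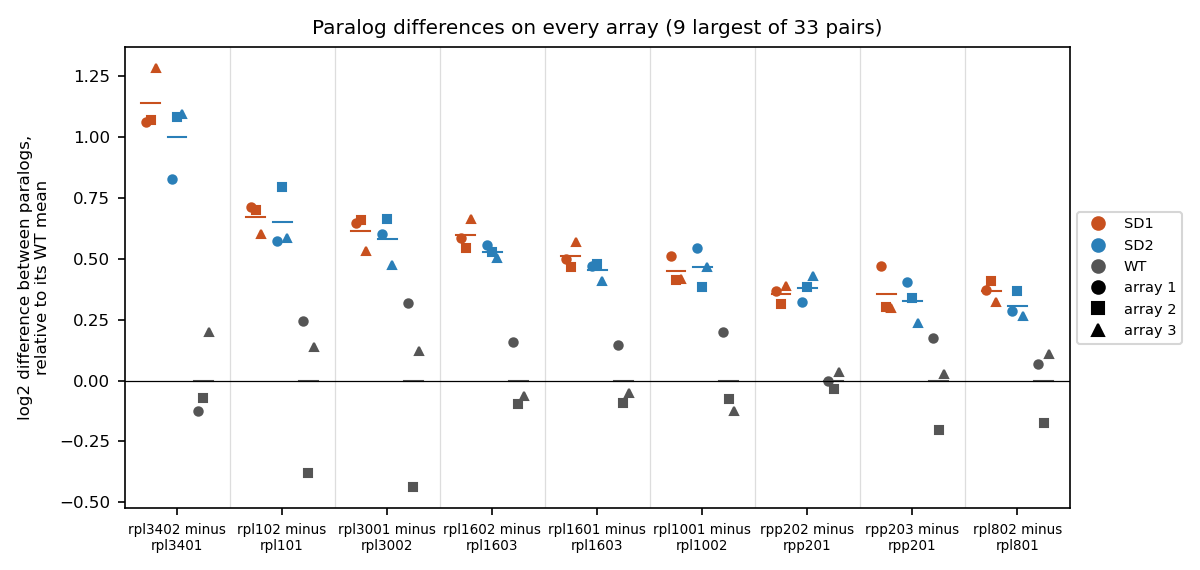
Difference in log2 signal between paralogs on each array, relative to its WT mean (vertical axis), for the 9 pairs with the largest mean difference of deletions and WT. SD1, SD2 and WT stand side by side, marker shapes give the array number and bars the means of 3 arrays. In all 9 pairs every deletion array lies above every WT array, and the spread of the WT arrays is widest for the L1 and L30 pairs.

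The size of a member's change went with its brightness. Across the 72 probe sets the mean log2 signal and the absolute change had a Pearson correlation of -0.70 and a Spearman correlation of -0.66 in SD1, and of -0.73 and -0.61 in SD2. These are correlations across genes measured on the same arrays, which are not independent replicates, and leaving out rpl3402 gave -0.72 and -0.65 in SD1. The 18 dimmest members, with a mean signal of 11.37 to 13.58, had a median absolute change of 0.35 in SD1 and 0.32 in SD2. They held 10 of the 13 calls in SD1 and 7 of the 9 in SD2.

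The next 3 groups of 18, in order of rising signal, had median absolute changes of 0.13, 0.099 and 0.078 in SD1. Other S. pombe probe sets in the range of the dimmest members numbered 511 and had a median absolute change of 0.28 in SD1, with 48.1% called. In the ranges of the brighter groups there were 35, 17 and 23 others, with medians of 0.14, 0.10 and 0.077. Among paralogs the one with the lower signal had the larger absolute change in 27 of 33 pairs in SD1 and in 25 of 33 in SD2. Pairs from the 4 families with 3 measured paralogs share genes. No share over all pairs of S. pombe probe sets was taken for this count. Whether the arrays compress differences at this brightness was not tested.

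**Figure D4:**
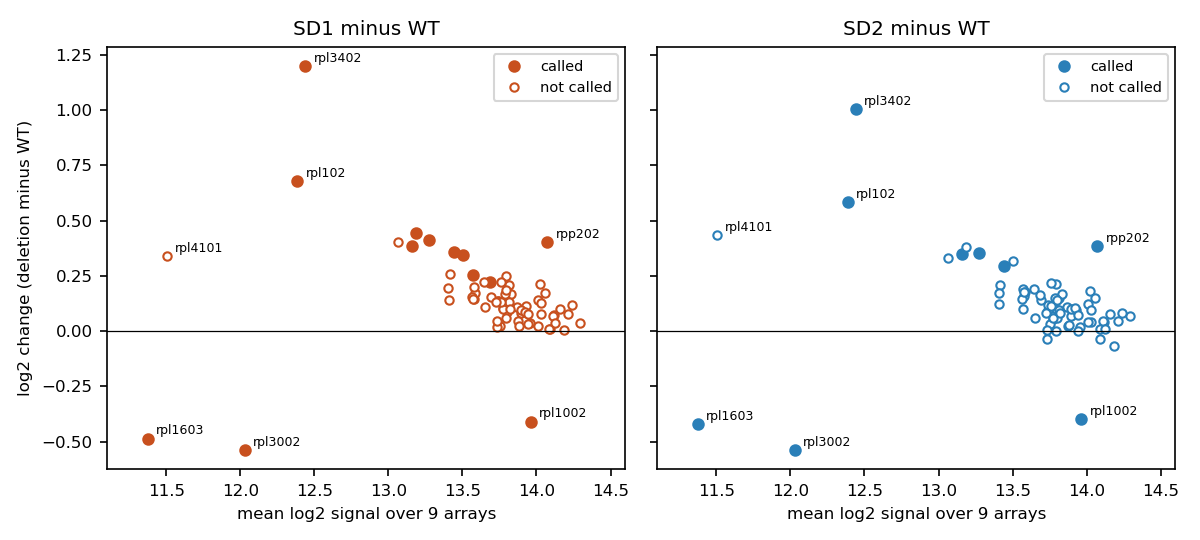
Log2 change against WT (vertical axis) against the mean log2 signal over 9 arrays (horizontal axis) for the 72 probe sets, SD1 left and SD2 right, filled where the adjusted p was under 0.05. Changes beyond 0.5 lie below a signal of 13, and among the brightest probe sets rpp202 and rpl1002 stand out from changes near 0.

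The WT arrays stood in a similar order for most members. WT array 2 was the lowest WT array for 65 of 72 members and WT array 1 the highest for 67. The absolute change was largest within number 2 for 58 members in SD1 and 60 in SD2. These counts were taken for the members alone, with no share over all S. pombe probe sets. In SD1 and SD2 too, the array numbered 1 had the highest member median. The 3′ minus 5′ signal of S. pombe 18S rRNA, a control ratio of this array, read -0.37 ± 0.055 in SD1, -0.43 ± 0.13 in SD2 and -1.17 ± 0.32 in WT (SD, n = 3), lowest in WT array 2 at -1.53. For 28S rRNA it read 0.38 ± 0.23 in SD1, 0.26 ± 0.12 in SD2 and -0.23 ± 0.21 in WT, with WT array 1 lowest at -0.47 and WT array 2 the highest of WT at -0.08. Both rRNA ratios were thus lower in WT, but WT array 2 stood at opposite ends of the WT arrays in them. For the actin mRNA the ratio was 0.30 ± 0.032, 0.33 ± 0.050 and 0.30 ± 0.083. The part of these differences in the members' changes was not tested. Without WT array 2 the count of rises was 6 in SD1 and 4 in SD2. Such a loss was not particular to that array. The count in SD1 was 5 without SD1 array 1 and 6 without SD1 array 3, and in SD2 it was 3 without SD2 array 2. Without WT array 1 it was 17 in SD1 and 10 in SD2. For these counts with an array left out, no share over all S. pombe probe sets was taken.

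SD2 and SD1 were close to each other for these genes. No member was called higher or lower in SD2 relative to SD1 with or without the block (limma), where 0.034% and 0.136% of all S. pombe probe sets were called without it and 0.545% and 0.306% with it. At an unadjusted p under 0.05 there was no member without the block and 1 with it. Of all 2937 S. pombe probe sets, 334 passed this limit without the block and 691 with it. The median difference was -0.03, against 0.04 over all S. pombe probe sets. SD2 lay above SD1 in all 3 numbers for 5 members and below it in all 3 for 40, against 34.3% and 18.4% of all S. pombe probe sets.

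The difference nearest to a call was that of rpl3402, lower in all 3 SD2 arrays than in any SD1 array, at -0.19 ± 0.10 with an adjusted p of 0.51. It was the 1 member whose SD2 and SD1 arrays did not overlap, while 12.2% of all S. pombe probe sets were so separated upward and 6.13% downward. The highest difference was 0.09 for rpl4101. All 72 intervals at 95% lay within 0.5 of 0 on the log2 scale, the widest bound being 0.47 for rpl4101, and 49 lay within 0.25, so smaller differences between the deletions remain possible.

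Other genes of ribosome production gave other counts. Among 46 probe sets for small-subunit proteins 2 rose and 2 fell in SD1, with a median change of 0.08, and 1 rose and 1 fell in SD2, with a median of 0.04. Among 25 for large-subunit proteins of the mitochondrial ribosome, 3 rose and 8 fell in SD1 and 3 rose and 3 fell in SD2, with medians of -0.15 and -0.10. Over all S. pombe probe sets 19.5% rose and 23.7% fell in SD1, and 17.6% and 14.3% in SD2. The difference between these lists and the cytosolic large-subunit genes was not tested.

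Genes for the assembly of the large subunit stood further from 0. Of 60 listed 25 had a named probe set, and 21 of them rose in each deletion while none fell. Over all S. pombe probe sets 19.5% rose in SD1 and 17.6% in SD2. The median changes of the 25 were 1.52 in SD1 and 1.12 in SD2. The 4 not called were nop16, rrs1, drs1 and brx1, with brx1 lowest at -0.23 and -0.29. Among the 21 that rose, rlp24, for an assembly factor that holds the place of L24, changed by 2.10 ± 0.14 and 1.57 ± 0.14. The change of mrt4, for the factor that holds the place of P0, was 1.38 ± 0.095 and 1.09 ± 0.095. nmd3, for the export adaptor of the subunit, rose by 1.77 ± 0.13 in SD1 and 1.25 ± 0.13 in SD2. Set beside rlp24 and mrt4, rpl2401 changed by 0.38 and 0.35 and rpp0 by 0.01 and -0.04. Signals were not matched in this comparison, and among the members larger changes went with lower signals.

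Of 12 regulators linked to ribosomal protein genes, none rose in either deletion, 3 of the 12 fell in SD1, beside 23.7% of all S. pombe probe sets, and 1 in SD2, beside 14.3%. These shares are close to or below those of the whole array. In SD1 mip1, for a subunit of the TORC1 kinase complex, fell by 0.41 ± 0.11 (limma, adjusted p = 0.0162), sck1, for a protein kinase, by 0.28 ± 0.065 (adjusted p = 0.00781), and tor2, for the TORC1 kinase, by 0.21 ± 0.066 (adjusted p = 0.0321). In SD2 maf1, for a repressor of RNA polymerase III, fell by 0.51 ± 0.16 (adjusted p = 0.0419), and its change in SD1 was -0.43 ± 0.16 (adjusted p = 0.0589).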

How the data were processed

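RNA of 9 cultures was labelled from 500 ng total RNA and hybridised to 1 array each, and the labels call the 3 arrays of a strain biological replicates, so p-values measure the spread between these arrays. The deposited values were log2 signals, made by the authors with RMA and Partek per the submitters' processing notes, with no versions or settings given. Of 10928 probe sets, 5538 were named in the probe table, and the other 5390 were left out of the fits. The 2937 whose gene id or symbol matched the S. pombe annotation were taken as S. pombe. The remaining 2601 were taken as S. cerevisiae for lack of such a match, and S. pombe genes under outdated names could be among them. The 4 rpl probe sets with several symbols were left out.

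Strain means were fitted with limma 3.58.1 in R 4.3.3 over all 9 arrays, followed by eBayes and Benjamini-Hochberg adjustment over the 2937 probe sets. Calls needed an adjusted p under 0.05, and "rose" and "fell" refer to such calls. SE is the standard error of the fit, and for paralog differences that of a model with 1 mean per strain (or for pooled deletions 1 mean per group). The script was tested on simulated data. Background was taken on each array as the 95th percentile over probe sets for S. cerevisiae.

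Same-numbered arrays of different strains had 74 to 4218 exactly equal values per pair over all probe sets, against at most 1 for arrays of different strains and numbers. The deviations from strain means correlated between -0.10 and 0.87 over 9 same-numbered pairs and between -0.87 and 0.75 over 18 others. The labels name no block, so the number was kept out of the reported fit and given as a block beside it. The equal values link same-numbered arrays across strains, and their cause was not tested. Neither the reported fit nor the exact permutation tests take this link into account.

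Named were all called members with their paralogs, the members with the 3 largest rises and falls, up to 6 gained with the block, the 6 largest paralog differences, the extremes of the role groups, and the brightest and dimmest members in WT. Further paralog pairs were named after their values were seen. The members and gene lists were chosen with earlier results of these data known. Promoter motifs and sequences were not analysed here.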

Additional observations from a re-analysis of the deposited data

How the results depend on the processing

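No called result reversed under any setting tried. The replicate block gave 41 rises in SD1 and 28 in SD2, quantile normalization 20 and 16, against 10 and 6 as reported. Over all S. pombe probe sets 26.8% and 26.0% were called higher with the block, against 19.5% and 17.6% as reported. No such share was taken for the other settings. Whether the members or the call rate of the whole array moved under them was therefore not tested. Leaving out single arrays gave 5 to 17 rises in SD1 and 3 to 10 in SD2, with 2 to 3 falls in each. Using the arrays of a pair of numbers, settings chosen after the data were seen, gave 20 and 11 rises for numbers 2 and 3, 4 and 3 for numbers 1 and 3, and 1 and 1 with 0 falls in both deletions for numbers 1 and 2. The cause was not tested. Centring each array, a background filter, an intensity trend, the 2 compared strains alone and the brightest probe set per gene kept all counts within 1.5 times. The median change of the members in SD1 was 0.18 after centring and 0.08 after quantile normalization, and in SD2 0.11 and 0.08. Leaving out single arrays moved it over 0.08 to 0.19 in SD1 and 0.05 to 0.17 in SD2, and over -0.08 to 0.02 for SD2 against SD1. The paralog pairs apart from WT numbered 20 to 24 over the settings without the block. Counted by number instead, 26 pairs had the same sign in all 3 numbers and both deletions. That is another measure, met by 68.1% of all pairs of S. pombe probe sets, against 43.0% for lying apart. Arrays carry no depth, and the S. pombe probe sets above background made up 97.6% to 98.9% per array.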
